A study of Mus musculus with 81 samples.

Results

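Open chromatin outside every listed histone mark and every listed RBPJ site was described in mature T cells of a mouse hybridoma, a line made by fusing T cells to a tumour line so that they grow without end in culture. Of 47748 regions that ATAC-seq listed as accessible in the control line, 7137 (14.9%, 95% Wilson interval 14.6 to 15.3%) overlapped no region of the H3K27ac, H3K4me1 and H3K4me3 lists and no region of the 2 RBPJ lists, by so much as 1 base. These unmarked open regions were therefore chosen by their overlap with the 5 lists, and neither their number nor the absence of the marks is a finding. The other 40611 open regions (85.1%) overlapped at least 1 list.

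The ATAC-seq list carries the name of the control line of a CRISPR experiment against RBPJ (Control_sgRbpj), of which 3 ATAC-seq libraries were labelled. The RBPJ lists come from the same control line (3 libraries) and from cells infected with wild-type BioNICD1, a form of the Notch1 intracellular domain (NICD1), the active part of the Notch1 receptor (2 libraries). The histone mark lists name no line, while the series holds 2 libraries per mark in the control line and 2 in the RBPJ-depleted line sgRbpj_2-12, so a list may cover both lines. All cells shared 1 parental line and 1 growth medium, and no label says whether a line is 1 clone or whether replicates are separate cultures. There is 1 list per assay and no value per library, so no difference below could be tested over samples. Intervals cover counting error over regions alone, and regions that lie near each other are not independent.

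Accessible DNA is DNA that transposase can reach, mostly where nucleosomes are displaced. H3K4me3 marks the nucleosomes around active and poised promoters, H3K4me1 those around enhancers and promoter flanks, and H3K27ac those of active promoters and enhancers. Open sites without any of these marks are a known part of mammalian chromatin and include many sites bound by the insulator protein CTCF. RBPJ is the DNA-binding factor of the Notch pathway, and binds mostly within open promoters and enhancers. Of the 40611 other open regions, 23648 held H3K4me3 without RBPJ (promoter-type below), 5144 held H3K27ac without H3K4me3 and RBPJ (active enhancer-type), 7724 held H3K4me1 alone (primed enhancer-type) and 4095 held RBPJ.

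The cells expressed genes of the T cell receptor complex and the T cell kinase gene Zap70. The 2 RNA libraries of the control line held 2377028 and 4805039 counts. Cd3e was at 149.8 and 115 CPM (counts scaled to a library total of 1000000) and Cd3g at 200.2 and 150.3 CPM. Zap70 was at 158 and 178 CPM. The co-receptor gene Cd4 was at 0.841 and 2.29 CPM, while 3 counts amount to 1.26 and 0.624 CPM. Of genes of other cell types, Cd79a (B cells), Lyz2 (myeloid cells), Hbb-b1 (red cells) and Col1a1 (fibroblasts) held at most 4 counts in either library.

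Unmarked open regions were narrow. Their median width was 465 bases (quartiles 398 and 541), against 707 bases (quartiles 498 and 1061) in the other open regions. Only 91 of the 7137 (1.28%) were wider than 1000 bases, against 11576 of the 40611 others (28.5%). The unmarked regions were close in width to the primed enhancer-type regions, at a median of 480 bases, and narrower than active enhancer-type regions at 530 bases, promoter-type regions at 816 bases and RBPJ regions at 1257 bases. They made up 14.9% of the open regions and 9.52% of the open bases, 3527020 of 37059460.

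The unmarked median lay below that of the other open regions on 20 of 20 chromosomes (1 to 19 and X). It ran from 440 to 474 bases over the chromosomes, against 645 to 768 bases for the others. Chromosomes share the same libraries and lists and are not replicates.

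**Figure D1:**
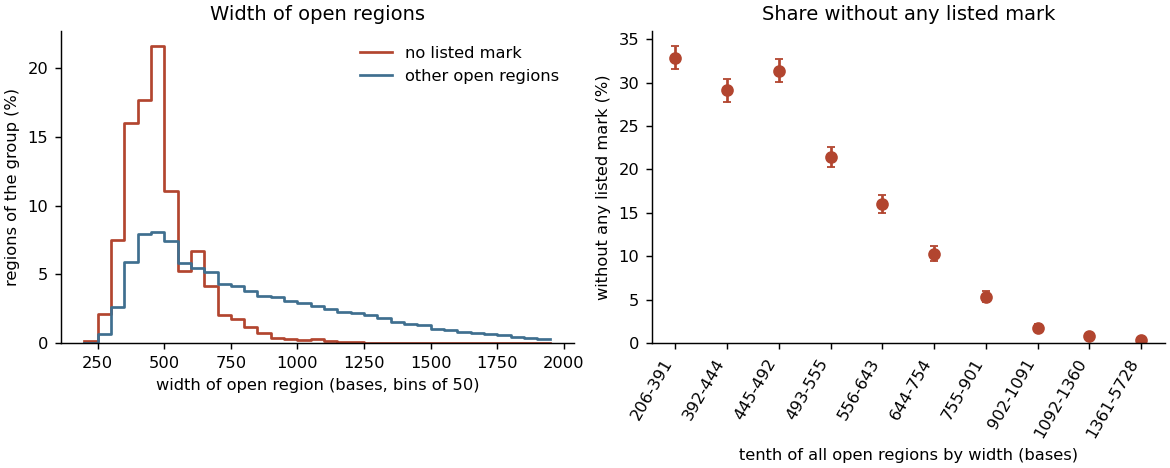
Left, width of open regions in bins of 50 bases, as a percentage of the 7137 unmarked and of the 40611 other open regions, up to 2000 bases. Right, percentage of open regions without any listed mark in 10 classes of all open regions by width, with 95% Wilson intervals. The share lies between 29.1 and 32.9% up to 492 bases and falls to 0.336% in the widest class.

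The share of open regions that were unmarked dropped steeply with width. Among the narrowest open regions, of 206 to 391 bases, 1614 of 4910 (32.9%) were unmarked, and among those of 445 to 492 bases 1476 of 4711 (31.3%). It was 10.3% at 644 to 754 bases and 5.32% at 755 to 901 bases. Among the widest, of 1361 to 5728 bases, 16 of 4761 (0.336%) were unmarked. A wide region can touch a listed region more easily, and the part of this in the trend was not tested. Where regions within 1000 bases of a listed region were also left out, the remaining 6191 unmarked regions had a median width of 467 bases. That setting keeps the easier contact of wide regions, so it cannot measure its part.

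The width distribution of the unmarked regions had more than 1 rise. Counted in steps of 20 bases, they numbered 606 at 380 to 399 bases, 459 at 420 to 439, 625 at 460 to 479, 140 at 580 to 599 and 205 at 620 to 639. From 600 to 639 bases there were 395 unmarked regions, against 293 from 560 to 599 bases, a ratio of 1.35. The same ratio was 0.978 in all other open regions (1795 against 1835), 0.852 in primed and 0.849 in active enhancer-type regions. The rise at 600 to 639 bases was present on 13 of 20 chromosomes for unmarked regions, against 10 of 20 for all other open regions, 6 of 20 for primed and 5 of 20 for active enhancer-type regions. These widths were chosen after the values were seen.

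The widest unmarked region was chr1:24618419-24622981 (mm9), of 4563 bases, which lay 27.1 kb from the nearest listed region and 61.7 kb from the nearest open region. The next widest, of 3481 bases, covered positions 65 to 3545 of the mitochondrial genome, whose DNA carries no nucleosomes. The other open region of the mitochondrial genome, positions 12679 to 16212, overlapped listed regions of all 3 histone marks and of RBPJ in the control line. The third widest was chr2:22442929-22445762, of 2834 bases, at 131 kb from the nearest listed region. No annotation of repeats or of regions with known artefacts in mm9 was used here, so whether reads map uniquely in these 3 widest regions was not tested. At the other end, the narrowest was chr3:59723923-59724128, of 206 bases, 117 kb from any listed region.

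Most unmarked open regions stood well clear of the marks rather than at their edges. The median distance to the nearest listed region of any kind was 5205 bases (quartiles 2092 and 12804). Within 500 bases of a listed region lay 522 unmarked regions (7.31%), within 1 kb 946 (13.3%), within 5 kb 3470 (48.6%) and within 10 kb 4937 (69.2%). Another 186 (2.61%) had no listed region within 100 kb. Since the rule fixed that each distance is above an overlap, these values describe how far the regions lie beyond it.

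Few regions sat at the threshold itself. Of the unmarked regions 20 lay within 10 bases of a listed region, and of the other open regions 22 were covered by 10 bases or fewer. The nearest unmarked regions were chr5:124442530-124443159 and chr12:26999695-27000262, which abutted an H3K4me1 region, and chr19:53059978-53060324, which abutted an H3K4me3 region. At 1 base from an H3K4me1 region lay chr10:38983556-38984181 and chr16:30374342-30374798. Just outside the rule, chr11:22569217-22569668 and chr5:54396625-54397194 overlapped an H3K4me1 region by 1 base. By contrast 30607 of the other open regions were covered by listed regions over their whole width.

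H3K4me1 was by far the most frequent nearest neighbour. For 5520 of the 7137 unmarked regions (77.3%) the nearest listed region was one of H3K4me1, for 1118 (15.7%) one of H3K4me3 and for 486 (6.81%) one of H3K27ac. The nearest was an RBPJ region of the BioNICD1 list in 14 cases and of the control list in 4. The H3K4me1 list is also the longest, with 112017 regions, against 46506 of H3K27ac and 42879 of H3K4me3. Median distances were 6295 bases to H3K4me1, 14942 bases to H3K4me3 and 17804 bases to H3K27ac. They were 145870 bases to the 3735 RBPJ regions of the BioNICD1 list and 330614 bases to the 1752 of the control list. Primed enhancer-type regions, which by definition overlap neither H3K4me3 nor H3K27ac, lay at medians of 12573 bases from H3K4me3 and 13557 bases from H3K27ac.

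**Figure D2:**
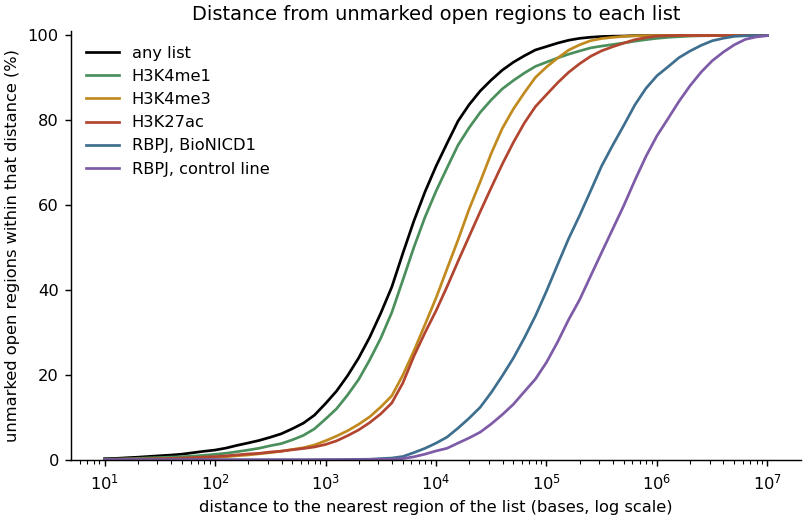
Percentage of the 7137 unmarked open regions (vertical axis) that lie within a given distance (horizontal axis, bases, log scale) of the nearest region of each list. The curve of H3K4me1 runs closest to that of all lists together, with 63.3% within 10 kb, and the RBPJ curves lie farthest to the right, with 3.92% (BioNICD1) and 2.09% (control line) within 10 kb.

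The nearest listed regions were often not accessible themselves. Where H3K4me1 was nearest, 1551 of 5520 of those H3K4me1 regions (28.1%) overlapped an open region, close to the 31.9% of all listed H3K4me1 regions that did. Of these nearest H3K4me1 regions 1041 (18.9%) overlapped H3K27ac, against 34.5% of the whole list. Where H3K4me3 was nearest, 320 of 1118 of those regions (28.6%) were open, against 65.2% of the whole H3K4me3 list, and 264 (23.6%) overlapped H3K27ac, against 66.0% of the list. The rule bears on these shares, because a listed region that covers an unmarked region is not possible.

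Few unmarked regions sat in a gap between H3K4me1 regions on both sides. The rule bears on this share, because an open region that a listed H3K4me1 region runs across is not unmarked. Within 1 kb, 43 unmarked regions (0.602%) had a listed H3K4me1 region on both sides, 643 (9.01%) on 1 side and 6451 (90.4%) on neither. In the 43, the H3K4me1 regions stood a median of 1224 bases apart, from 375 to 2382 bases. Among primed enhancer-type regions, 64 of 7724 (0.829%) had a further H3K4me1 region on both sides, and among promoter-type regions 1752 of 23648 (7.41%) did.

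Unmarked open regions lay in thinly marked surroundings. The H3K4me1 and H3K27ac lists entered the rule, so these counts describe where regions chosen for lacking them lie. Within 50 kb, counting no region that overlaps the open region itself, a median of 7 listed H3K4me1 regions lay around an unmarked region, against 9 around a primed and 12 around an active enhancer-type region and 12 around a promoter-type one. For H3K27ac the medians were 2 around unmarked, 3 around primed and 5 around both active enhancer-type and promoter-type regions. No H3K4me1 region lay within 50 kb of 759 unmarked regions (10.6%), against 4.21% of primed enhancer-type and 3.32% (1350) of all other open regions. No H3K27ac region did so for 1802 unmarked regions (25.2%), against 18.6% of primed enhancer-type and 10.8% (4381) of all other open regions.

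They were also thinly spaced among the open regions, a measure the rule did not use. The nearest other open region lay a median of 10941 bases from an unmarked region (quartiles 5328 and 26413), against 7148 bases from the other open regions (quartiles 3078 and 15688). The median was 9141 bases for primed and 6613 bases for active enhancer-type regions. The distance was larger for unmarked regions on 20 of 20 chromosomes. It was larger in 9 of 10 width classes too, the exception being the widest class (1361 to 5728 bases), with 6464 bases for its 16 unmarked regions and 8117 bases for the others.

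The unmarked share was lower in more crowded surroundings. Of 3459 open regions with no other open region within 50 kb, 974 (28.2%) were unmarked. The share was 19.4% with 1 or 2 others within 50 kb, 14.9% with 3 to 5, 10.4% with 6 to 10, and 7.26% (195 of 2687) with 11 to 26. Among the narrow open regions, of 206 to 510 bases, it was 46.4% (776 of 1671) with no other open region within 50 kb and 16.5% (137 of 829) with 11 or more. Among open regions of 511 to 846 bases it was 17.0 and 5.61% at the same steps, and among wider ones 2.22 and 0.828%.

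**Figure D3:**
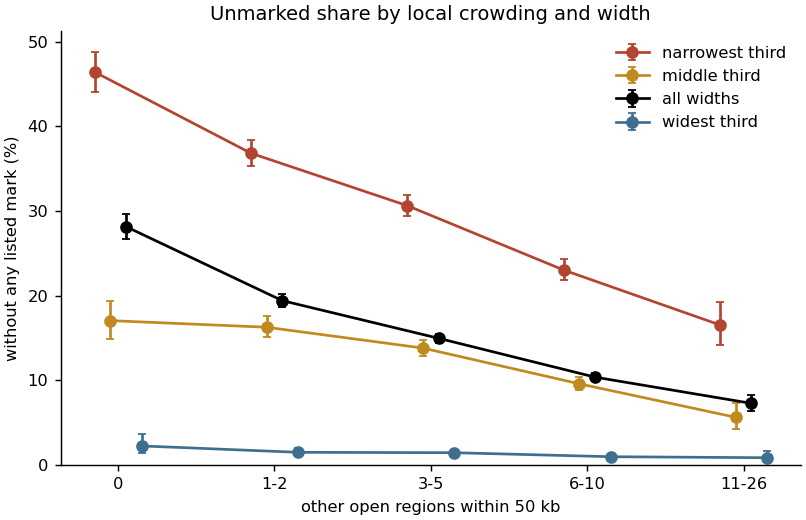
Percentage of open regions without any listed mark (vertical axis) by the number of other open regions within 50 kb (horizontal axis), for all widths and for 3 width classes, with 95% Wilson intervals. The share is highest for narrow regions that stand alone, at 46.4%, and lower at each step towards crowded surroundings in all 3 width classes and over all widths.

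Unmarked regions tended to be next to each other. The rule bears on this, because a listed region can overlap several open regions that lie close together and so mark them all. The unmarked share was also higher in thinly spaced surroundings, as given above. The part of these in the shares below was not tested, so the shares are a description. The nearest open region of an unmarked region was itself unmarked in 1599 of 7137 cases (22.4%), against 4998 of 40611 (12.3%) for the other open regions. The share was 16.2% for primed enhancer-type, 13.2% for RBPJ, 11.5% for promoter-type and 9.49% for active enhancer-type regions. It was higher for unmarked than for other open regions on 20 of 20 chromosomes. In the remaining cases the nearest open region was promoter-type for 3079 unmarked regions (43.1%), primed enhancer-type for 1293 (18.1%), active enhancer-type for 585 (8.20%) and an RBPJ region for 581 (8.14%). Of all open regions, 14.9% were unmarked, 49.5% promoter-type, 16.2% primed enhancer-type, 10.8% active enhancer-type and 8.58% RBPJ regions. Where the nearest open region lay within 1 kb, which held for 253 unmarked regions, it was unmarked in 107 (42.3%). Beyond 1 kb there was no steady trend, with 21.4% up to 5 kb, 19.8% from 5 to 20 kb and 24.5% beyond 20 kb. Regions that are each other's nearest both count, and shares by distance are not given here for the other open regions.

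In the order of open regions along the chromosomes, 4402 unmarked regions (61.7%) stood between 2 marked open regions or at a chromosome's end, and 2735 (38.3%) belonged to a run of 2 or more consecutive unmarked regions. With 14.9% of all open regions unmarked, some runs would form in a random order too, and how many was not tested. Of the runs of 2 or more, 872 held 2 regions and 210 held 3. A handful were far longer. The longest held 26 unmarked regions in a row at chr5:14807104-15791339. A run of 16 at chr4:59941117-61927004 spanned 1986 kb, and another run of 16 at chr9:3000179-3038186 spanned 38.0 kb. The next longest, at chr17:21254773-21369110 and chr5:147291056-147456547, held 7 each. Whether the 3 longest runs lie in repeated sequence was not tested, for the same lack of annotation.

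The 3 longest runs differed in their spacing. On chromosome 9 the 16 regions had a median width of 309 bases and lay a median of 1973 bases apart, at 42706 to 79282 bases from the nearest listed region. On chromosome 5 the 26 regions had a median width of 465 bases and lay a median of 11336 bases apart, and on chromosome 4 the 16 had a median width of 459 bases and lay a median of 90850 bases apart. These runs hold 58 of the 7137 unmarked regions (0.813%), and leaving them and the mitochondrial region out left 7078 with a median width of 465 bases.

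Per window of 1 Mb, 1955 of 2399 windows with any open region (81.5%) held an unmarked one, with a median of 2 and a maximum of 19. The window with 19, chr5:15000001-16000000, held 20 open regions in all. The next, chr9:3000001-4000000, held 16 of 21. These windows overlap the long runs on chromosomes 5 and 9, whose place in repeated sequence was not tested. The other 3 windows with 16 unmarked regions held more open regions in all, 46 at chr2:158000001-159000000, 63 at chr15:81000001-82000000 and 65 at chr17:27000001-28000000. Among windows with at least 3 open regions, 5 held unmarked ones alone, and the largest of these was chr5:14000001-15000000 with 8.

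**Figure D4:**
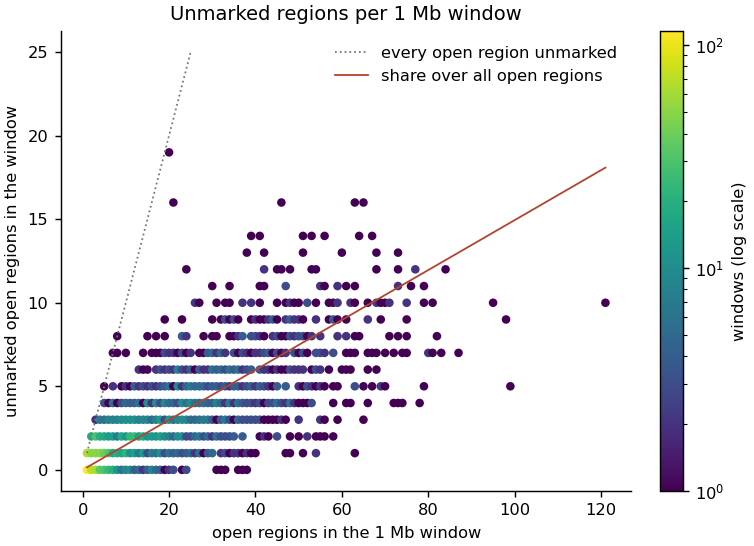
Unmarked open regions (vertical axis) against all open regions (horizontal axis) in windows of 1 Mb, coloured by the number of windows at each point (log scale). The solid line is the share over all open regions, 14.9%, and the dotted line marks windows in which every open region is unmarked; the point with 19 unmarked of 20 open regions lies next to it.

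The 5 unmarked regions farthest from any listed region were chr14:3651438-3651875 at 884 kb, chr19:51217043-51217424 at 801 kb, chr6:75717675-75718087 at 728 kb, chr19:50773520-50773822 at 585 kb and chr10:102905652-102906103 at 564 kb. The region on chromosome 6 lay 2249 kb from the nearest open region of any kind. The 186 unmarked regions beyond 100 kb of every listed region were narrower than the 6951 nearer ones, with a median of 405 bases (quartiles 357 and 499), against 466 bases (quartiles 399 and 542). The 522 within 500 bases of a listed region were narrow too, with a median of 422 bases. Of the 186, 11 belonged to the 3 longest runs.

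By chromosome, the unmarked share of open regions was highest on chromosome 4, at 503 of 2900 (17.3%, 95% Wilson interval 16.01 to 18.8%), and on chromosome 3, at 448 of 2612 (17.2%, 15.8 to 18.6%). It was lowest on chromosome 13, at 222 of 1910 (11.6%, 10.3 to 13.1%), and on chromosome 8, at 241 of 2034 (11.8%, 10.5 to 13.3%). The X chromosome, at 14.9% (201 of 1346), stood at the share of the whole list. None of the 3 open regions on the Y chromosome was unmarked. The intervals of chromosome 4 and chromosome 13 did not overlap. These 2 were picked as the highest and the lowest of 20 chromosomes on this same share, so the gap between their intervals cannot serve as a test. Chromosomes next to each other in an order by share are close by construction.

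The share was lower on chromosomes with more H3K4me1 regions per open region. Across the 20 chromosomes Pearson's r was -0.70 and Spearman's rho -0.70, and r was -0.70 without the 2 chromosomes farthest from the median. Chromosome 13 had 2.83 listed H3K4me1 regions per open region and chromosome 3 had 1.98. This list entered the rule and all chromosomes share 1 set of lists, so the relation is a description. The X chromosome departed from it, with 2.80 H3K4me1 regions per open region and a share of 14.9%.

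The relation with the number of expressed genes was weak and depended on the rule. Of 11747 genes at a mean of at least 1 CPM in the control line, 11706 (99.7%) could be placed on 1 chromosome by their symbol. Over the 20 chromosomes there were 0.193 to 0.314 expressed genes per open region. Pearson's r between this number and the unmarked share was 0.0070 and Spearman's rho 0.12, and r was 0.11 without the 2 chromosomes farthest from the median. Spearman's rho was 0.46 where a listed region had to cover 50% of an open region, and -0.10 among open regions of at least the median width. Chromosomes 7 and 8 had the most expressed genes per open region, at 0.314 and 0.304, and their unmarked shares were 16.6 and 11.8%.

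**Figure D5:**
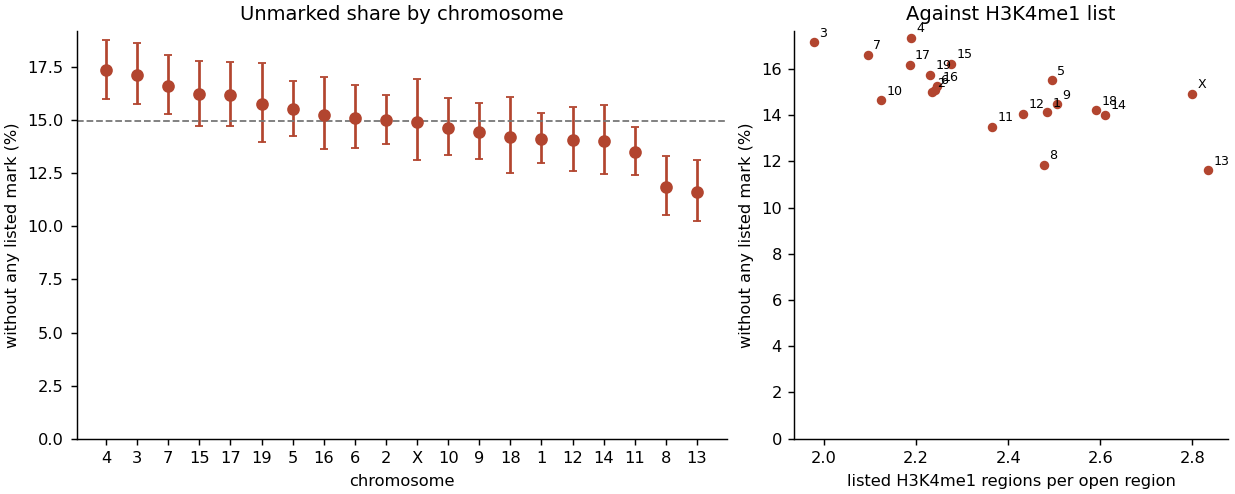
Left, percentage of each chromosome's open regions without any listed mark, with 95% Wilson intervals; the dashed line is the share over all open regions, 14.9%. Right, the same percentage against the number of listed H3K4me1 regions per open region; chromosome 13 lies lowest, at 11.6%, and chromosome 4 highest, at 17.3%.

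RBPJ regions lay near a smaller share of unmarked than of active enhancer-type and promoter-type regions, and near a similar share of primed ones. Both RBPJ lists entered the rule and open regions with RBPJ are left out here, so this is a description. Within 50 kb, 1704 unmarked regions (23.9%) had an RBPJ region of the BioNICD1 list, against 25.2% of primed enhancer-type, 31.5% of active enhancer-type and 29.9% of promoter-type regions, none of which overlap RBPJ. For the RBPJ list of the control line the shares were 13.0% for unmarked, 13.5% for primed, 16.5% for active enhancer-type and 15.4% for promoter-type regions. The closest RBPJ region of the control list lay 673 bases from an unmarked region, and the closest of the BioNICD1 list 776 bases.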

How the data were processed

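The authors deposited 1 list of start and end positions (a unit of another kind than a count) for each of ATAC-seq, H3K27ac, H3K4me1, H3K4me3 and RBPJ in 2 cell groups. Their score column is 0 throughout, so strength could not be ranked. Per the submitters' processing notes, TopHat2 2.1.1, Picard, deepTools and build mm9 were used, without roles. The peak caller, thresholds and treatment of replicates are not given in the sources used here, and the depth behind the lists is unknown.

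Regions sharing at least 1 base count as overlapping, and distances are the bases between regions. Overlaps, distances and covered bases were tested on simulated regions against bedtools. Shares have 95% Wilson intervals (scipy 1.17.1). Coordinates are mm9, counted from 1. No mm9 genome or annotation was used here, so no sequence, motif or nearby gene is given, and the planned test of nearby genes was not run.

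The deposited table of raw read counts per gene served for 2 control libraries; the authors' counting tool is not given in the sources used here. CPM divide by the library total. The other 63 columns were not used here. RefSeq (GRCm38.p6) gave each symbol's chromosome only.

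Regions named are the widest, the narrowest, the 5 farthest from and nearest to a listed region, and the 5 longest runs and fullest windows. Members, lists and measures were chosen with earlier results of these data known. Alternatives varied overlap, lists, width, chromosomes, windows and flanks.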

Additional observations from a re-analysis of the deposited data

How the results depend on the processing

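No paired analysis was possible because the results come from no test and the lists carry no replicates; leaving out a replicate was not possible either. Of the values below, those not named stayed within a factor of 1.5 (counts), within 0.1 (Spearman's correlation) or within their 95% binomial interval (shares and medians). The number of unmarked regions was 900 among open regions of at least the median width, and 14861 without the H3K4me1 list, which decides membership more than any other list tried. The median width was 481 bases with an overlap of 50%, 732 bases at or above the median width, 472 bases without H3K4me1 and 469 bases without H3K4me3. The median distance to a listed region was 2599 bases with an overlap of 50%, 5797 and 6412 bases where regions within 500 and 1000 bases also counted, 5438 bases at or above the median width and 10715 bases without H3K4me1. The median distance to the nearest open region was 8678 (8677.5), 11626, 12224 and 17398 bases under the same first 4 settings. The 17398 bases run to the nearest open region of at least the median width, since narrower ones were left out. That value is therefore another measure than the rest. The median was 10524 bases without H3K27ac and 9985 bases without H3K4me1. The share with H3K4me1 within 1 kb on either side, 9.61%, was 16.5, 5.06, 0 and 8.67% under those 4 settings, 18.9% within 2 kb and 4.69% within 500 bases. Its 0 is fixed in advance, since regions within 1000 bases of a list are left out there. The setting of 500 bases likewise leaves out the nearest ones. The lowest share of a chromosome was 18.2, 10.1, 9.48 and 2.39% under the same 4 settings. The highest was 23.3% with an overlap of 50%, 15.4% with 1000 bases and 4.65% at or above the median width. Spearman's correlation with expressed genes was 0.46 with an overlap of 50% and -0.10 at or above the median width. The most unmarked regions in a window were 30 with an overlap of 50% and 6 at or above the median width. At or above the median width the longest run held 7 regions, consecutive among the open regions of that width alone. It also held 7 without the 3 longest runs, an alternative chosen after seeing the data. The causes were not tested.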

Other observations

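The width of exactly 391 bases was the most frequent width of unmarked regions, with 65 unmarked regions, against 119 of the other open regions. At 390 bases there were 28 unmarked regions and 40 others, and at 392 bases 32 unmarked regions and 67 others. At 401 bases there were 45 unmarked regions and 67 others. These widths were chosen after the values were seen.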
